A study of Mus musculus with 20 samples.

Results

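Gap junction, tight junction and desmosome genes were described in single cells of growing (anagen) mouse dorsal skin from Fgf5-/- mice and controls. The genes were chosen by name alone, as symbols of connexins (Gja, Gjb, Gjc), claudins (Cldn), desmogleins (Dsg) and desmocollins (Dsc), and were kept with at least 10 UMIs (counted RNA molecules) over both deposited matrices. Of 31055 features, 58 symbols matched and 40 were kept. The 40 were 14 of 16 connexins, 18 of 33 claudins, 5 of 6 desmogleins and 3 of 3 desmocollins. Of the 18 symbols left out, 9 had no UMI and 9 had 1 to 9. The kept genes nearest the minimum were Cldn17 with 23 UMIs, Cldn20 with 25 and Gja6 with 48, and the nearest left out were Cldn2 with 8, Cldn13 with 7 and Cldn18 with 7.

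The Mutant group (16 labelled samples) carried Nfatc1-CreER, R26R, mTmG and Fgf5-/-, and its mice received tamoxifen for 3 days from postnatal day 23 or 24. The Control group (4 labelled samples) carried Nfatc1-CreER, R26R and mTmG, and received tamoxifen for 3 days from postnatal day 21 or 22. Both groups therefore carried the inducible Cre driver and the reporters, tamoxifen was started later in the Mutant group, and the age at harvest is not given in the labels. Nfatc1-CreER is a tamoxifen-dependent recombinase made in cells that express Nfatc1, among them bulge stem cells of the hair follicle, and Fgf5 encodes a secreted growth factor known for promoting the end of anagen. The samples of a group were deposited as 1 matrix with no map from cells to samples. Each group is thus 1 sample, there is no replicate check, and no difference below was tested.

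Connexins assemble into channels that join the cytoplasm of neighbouring cells, and the epidermis and hair follicle use several of them in overlapping layers. Claudins are the membrane proteins that seal tight junctions, which in the epidermis form a barrier in the granular layer. Desmogleins and desmocollins are the cadherins of desmosomes, which hold keratinocytes together, are tied to keratin filaments through plakoglobin, plakophilins and desmoplakin, and change in makeup as keratinocytes move upward.

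After filtering, 11047 Mutant cells (88300305 UMIs, median 6003 per cell) and 13743 Control cells (129921951 UMIs, median 5583 per cell) remained. The median share of mitochondrial UMIs was 4.93% in Mutant cells and 3.21% in Control cells, and its part in the ratios was not tested. Of the cell barcodes, 59 occurred in both matrices. Cells were clustered without the junction genes and named from markers. The 12 classes with at least 200 cells in each matrix were compared, as were 3 classes with 150 to 199 cells in 1 matrix, a minimum lowered after the cell numbers were seen. Levels are CPM (the UMIs of a gene scaled to a common total per class) from 3' tags, so levels of different genes are not set against each other. Intervals are 95% and cover counting error only. Ratios count as large from 2-fold up, provided that the interval stays beyond 1.5-fold and the mean of both levels reaches 20 CPM, and "rose" and "fell" are used for large ratios alone.

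Large ratios of junction genes were found mainly in interfollicular epidermis. Cldn4 rose and Dsg1a fell in Mutant basal-like keratinocytes, although Cldn4 was not higher within each cluster of that class. In suprabasal-like keratinocytes Gjb2, Gjb6 and Cldn1 rose, while Gjb5 fell. The basal-like Dsg1a call held in only 8 of 14 alternative settings, and the suprabasal-like Gjb5 call in only 7 of 14. Dsg3 rose in upper follicle-like cells, a call that held in only 8 of 14 alternative settings. Cldn4 rose and Gjb2 fell in cluster 0, a proliferating population led by Hist1h1b, Pclaf, Stmn1 and Mki67. No large ratio was seen in outer root sheath-like, hair matrix-like, hair medulla-like, inner root sheath-like, dermal papilla-like or melanocyte-like cells, nor in clusters 1 and 17. Over the 12 classes, 78 pairs of member and class reached the level minimum, of which 5 (6.41%) were large and higher in Mutant cells and 6 (7.69%) large and lower. Over all genes in the same classes, 3.01% of pairs were higher and 4.35% lower. With TMM factors, which rescale by the bulk of genes, 11 pairs were higher and 5 lower, against 3.84% and 3.41% of all pairs. The split between directions therefore depends on the scaling.

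**Figure D1:**
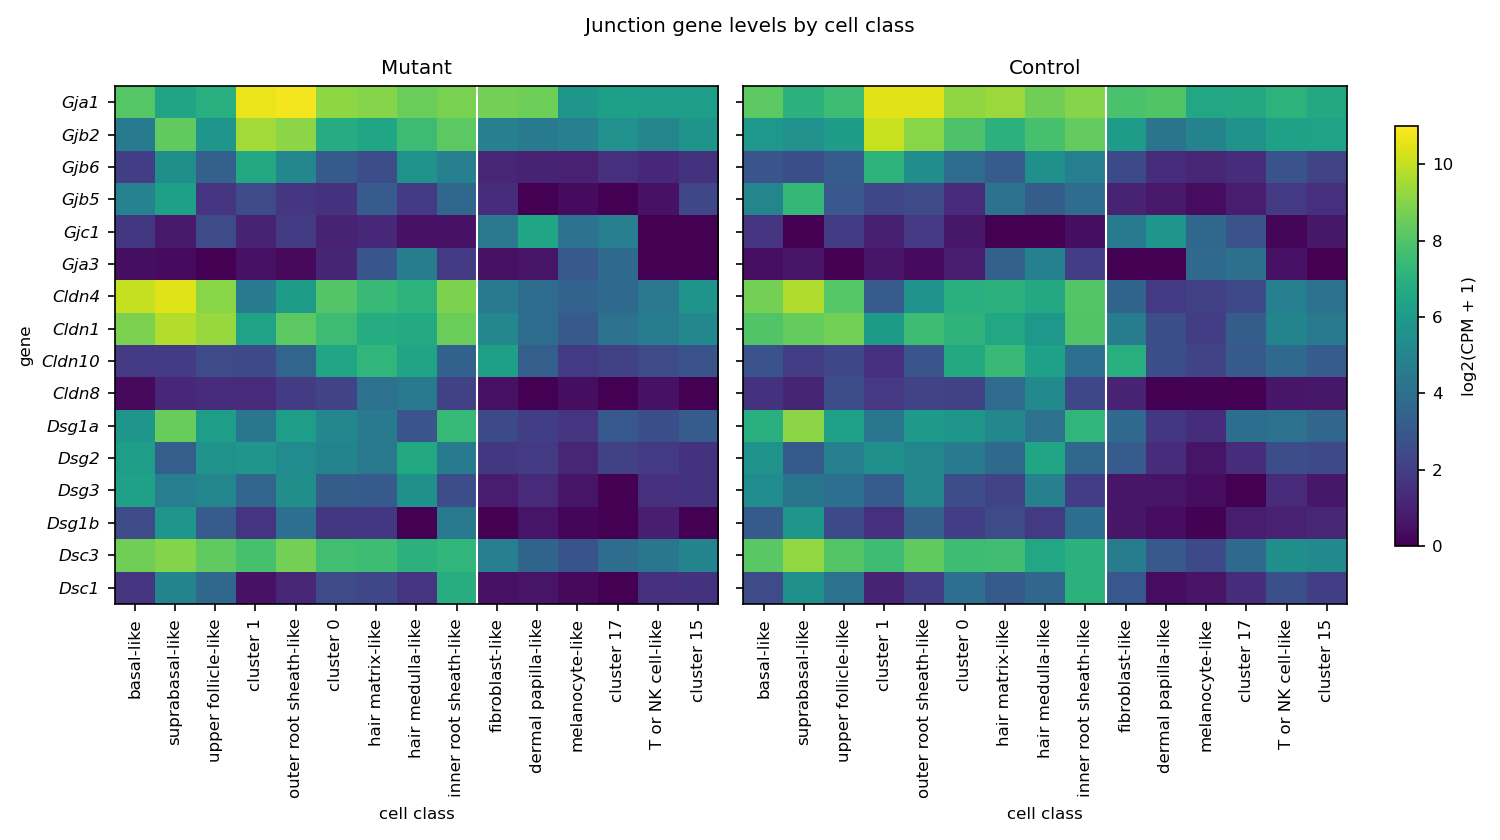
Levels of 16 junction genes compared in at least 1 class, as log2(CPM + 1) in colour, with genes in rows and cell classes in columns, Mutant in the left panel and Control in the right panel; the white line parts keratinocyte classes from the others. Gja1 was brightest in cluster 1 and outer root sheath-like cells, and Cldn4 and Dsc3 in suprabasal-like cells, in both panels.

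Of the 40 genes, 18 reached the level minimum in at least 1 class, and the other 22 had at most 21.4 CPM in any of the 15 classes.

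Gja1, the most widely used connexin of skin (ENSMUSG00000050953, chromosome 10, 56377330 to 56402513, plus strand, GRCm38), was highest in outer root sheath-like cells, with 1784 CPM in Mutant cells and 1458 CPM in Control cells. Cluster 1, led by Gnmt and Cbs and with outer root sheath markers, was next among the compared classes, with 1652 CPM in Mutant cells and 1453 CPM in Control cells, and the small companion layer-like class had 1685 CPM in Mutant and 1392 CPM in Control. In Control cells the levels of the outer root sheath-like class and cluster 1 differed by less than counting error. In fibroblast-like cells Gja1 had 420 CPM in Mutant and 231 CPM in Control (log2 0.86), and in dermal papilla-like cells 374 CPM in Mutant and 258 CPM in Control (log2 0.54). Scaled by class totals, Gja1 had no large ratio in any of its 15 classes and was above 0 on the log2 scale in 4 of them. With TMM factors its fibroblast-like ratio was large (log2 1.09). A stretch of 105 bases near the 3' end of Gja1 matches Glcci1 at 95.2% identity, so reads there could be shared.

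Gjb2 (ENSMUSG00000046352, chromosome 14, 57098600 to 57104702, minus strand, GRCm38) and Gjb6 (ENSMUSG00000040055, chromosome 14, 57123303 to 57133611, minus strand) are neighbouring genes for connexins of the inner ear and skin, and human mutations in either cause hearing loss or skin disease. Among the compared classes Gjb2 was highest in cluster 1, with 711 CPM in Mutant cells and 1075 CPM in Control cells, and next in outer root sheath-like cells, with 541 CPM in Mutant and 519 CPM in Control. Gjb6 was also highest in cluster 1, with 99.1 CPM in Mutant and 138 CPM in Control. Neither gene had a large ratio in these follicle classes. Within the outer root sheath-like class, Gjb2 was set apart by cluster, with 370 CPM in Mutant and 335 CPM in Control cells of cluster 5, and 1039 CPM in Mutant and 1319 CPM in Control cells of cluster 19.

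In suprabasal-like cells (492 Mutant and 196 Control cells), 3 of 13 compared members rose, against 7.17% of all compared genes, and 2 fell, against 13.4% of all genes. Gjb2 had 1367 UMIs (318 CPM) in Mutant cells and 78 UMIs (46.0 CPM) in Control cells, a log2 ratio of 2.79 (2.46 to 3.14). Gjb6 had 189 UMIs (44.0 CPM) in Mutant cells and 9 UMIs (5.30 CPM) in Control cells, a log2 ratio of 3.05 (2.10 to 4.20). For both connexins the Mutant and Control intervals were far apart. Gjb2 was detected in 30.3% of Mutant and 16.3% of Control suprabasal-like cells. With each cell thinned to 1500 UMIs, the shares were 17.04% in Mutant and 3.68% in Control. Lymphocytes should lack Gjb2, and its thinned share in T or NK cell-like cells was 2.42% in Mutant and 6% in Control, so the Control share in suprabasal-like cells was within background. Thinned Gjb6 shares were 2.46% in Mutant and 0.526% in Control suprabasal-like cells, and 0.115% in Mutant and 0.651% in Control T or NK cell-like cells. The Control share of Gjb6 in suprabasal-like cells was thus within background as well. The Gjb6 call held in 10 of 14 alternative settings. It was lost with the mean of per-cell CPM, clusters formed without genes of large ratio, thinned cells and a level minimum of 100 CPM. The unthinned medians were 8038 UMIs in Mutant and 7392 UMIs in Control suprabasal-like cells, and 1931 UMIs in Mutant and 2270 UMIs in Control T or NK cell-like cells.

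The bases before the start of Gjb2 and Gjb6 are shown because these neighbours moved together in suprabasal-like cells. RefSeq promoters on GRCm38.p6 were matched for 25 of the 40 genes, and 250 bases before the start were searched on both strands for the AP-1 motif TGANTCA and the grainyhead-like (GRHL) motif AACCNGTT. The lines give Gjb2 at chr14:57104703-57104952 and Gjb6 at chr14:57133612-57133861, both on the minus strand, with the motif match in capitals.
Gjb2: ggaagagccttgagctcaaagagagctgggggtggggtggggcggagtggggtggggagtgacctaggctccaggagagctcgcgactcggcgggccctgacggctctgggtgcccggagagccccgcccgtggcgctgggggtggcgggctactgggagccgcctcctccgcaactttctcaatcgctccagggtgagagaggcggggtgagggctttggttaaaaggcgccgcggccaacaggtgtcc
Gjb6: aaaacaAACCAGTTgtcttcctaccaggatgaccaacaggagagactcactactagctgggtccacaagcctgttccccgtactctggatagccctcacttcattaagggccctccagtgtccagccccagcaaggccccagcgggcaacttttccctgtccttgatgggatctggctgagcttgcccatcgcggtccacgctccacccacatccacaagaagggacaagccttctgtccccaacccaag
The window of Gjb6 held 1 GRHL match, at position -244 from the start, and that of Gjb2 held neither motif. A GRHL match was present in 1.79% of 32851 promoters. A match is a description of the letters only.

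Gjb5 (ENSMUSG00000042357, chromosome 4, 127354809 to 127358181, minus strand, GRCm38) encodes a connexin of stratified epithelium and was, among the compared classes, highest in suprabasal-like cells. Hair cortex and cuticle-like cells, given levels only, had 108.75 CPM in Mutant and 108.74 CPM in Control, the Mutant level lying above that of suprabasal-like cells. Gjb5 had 73.6 CPM in Mutant and 158 CPM in Control suprabasal-like cells (log2 -1.10, -1.34 to -0.86). With TMM factors, which subtract a shift of -0.47 from every suprabasal-like ratio, Gjb5 was no longer large, while Cldn4 was large at 1.24.

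**Figure D2:**
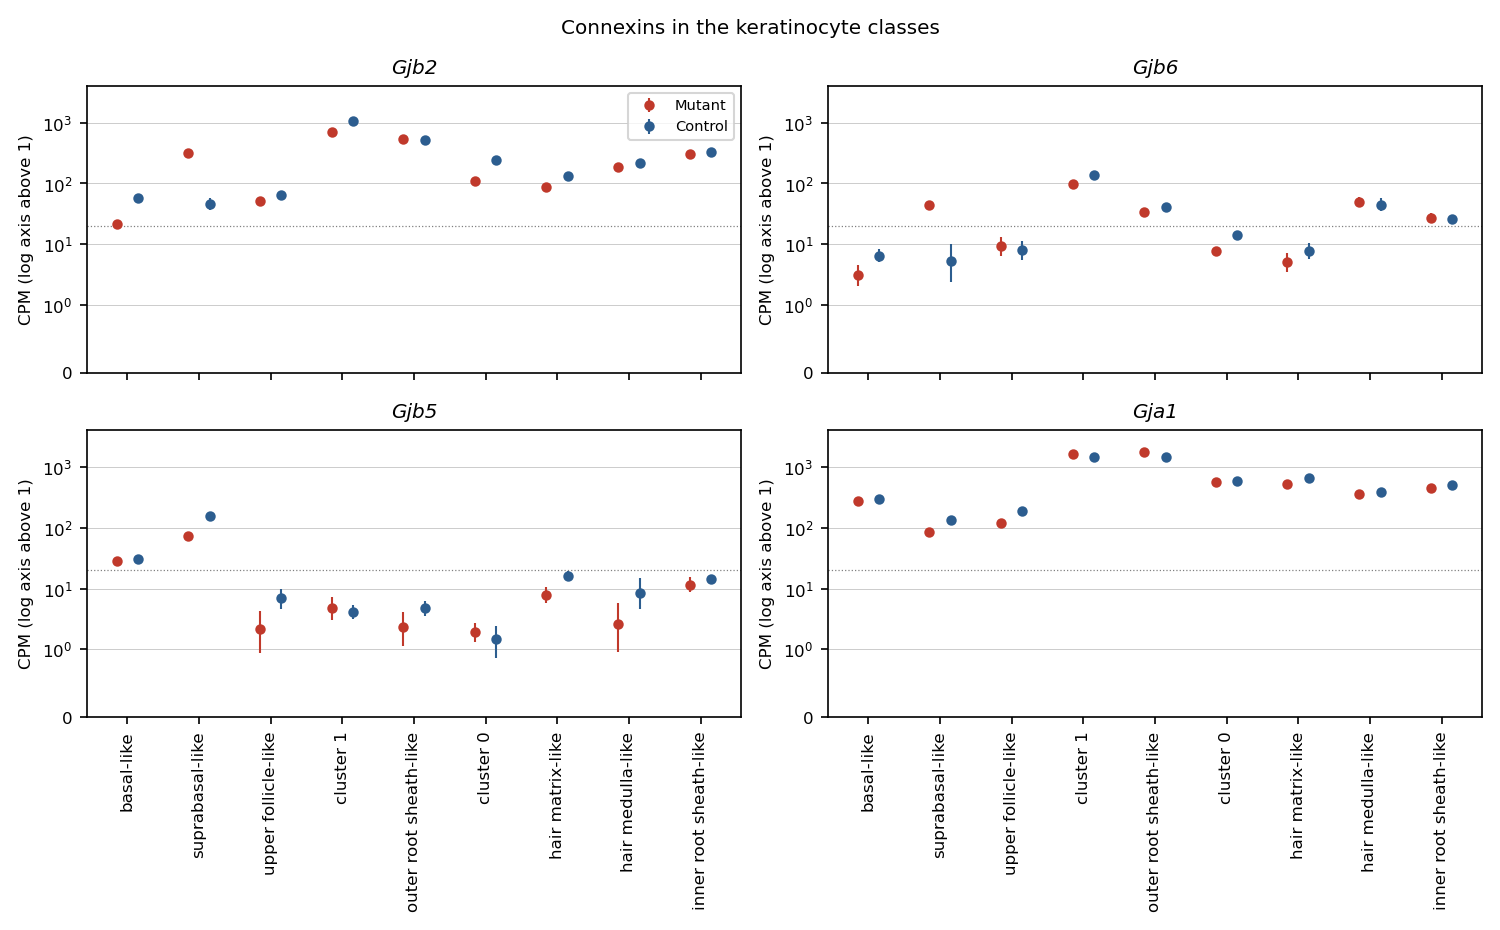
Levels in CPM (log axis above 1) of 4 connexins in 9 keratinocyte classes, Mutant in red left of Control in blue, with exact Poisson 95% intervals; the dotted line is the 20 CPM minimum. In suprabasal-like cells Gjb2 and Gjb6 stood higher in Mutant (318 and 44.0 CPM) than in Control (46.0 and 5.30 CPM), whereas Gjb5 stood lower.

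In basal-like cells (1313 Mutant and 1147 Control cells), 3 of 11 compared members rose, against 5.22% of all compared genes, and 2 fell, against 12.1%. Gjb5 had 28.0 CPM in Mutant and 30.8 CPM in Control basal-like cells, a ratio whose interval held 0. Gjb2 had 21.7 CPM in Mutant and 57.9 CPM in Control (log2 -1.41), but both levels were under 10% of its highest class, so this large ratio is marked as possible free RNA.

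Most Mutant basal-like cells were in cluster 4 (1258 of 1313) and most Control ones in cluster 11 (948 of 1147), so the class is largely a comparison of different clusters. In cluster 4, Gjb2 had 20.7 CPM in Mutant and 26.4 CPM (4 UMIs, 24 cells) in Control cells, and in cluster 11 it had 21.01 CPM (5 UMIs, 49 cells) in Mutant and 47.2 CPM in Control cells. Both within-cluster intervals of Gjb2 held 0.

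Markers of other cell types also differed in these classes. The 4 companion layer markers summed to 2831 CPM in Mutant and 383 CPM in Control basal-like cells, and to 6271 CPM in Mutant and 543 CPM in Control suprabasal-like cells. Krt16, a keratin also made by stressed or rapidly dividing epidermis, made up most of both Mutant sums. It had 6179 CPM in Mutant and 536 CPM in Control suprabasal-like cells, and 2788 CPM in Mutant and 335 CPM in Control basal-like cells. In basal-like cells Krt6a also rose (31.2 CPM in Mutant, 11.5 CPM in Control), whereas Krt75 fell (11.7 CPM in Mutant, 36.8 CPM in Control). In the same basal-like cells the 6 outer root sheath markers, all detected, summed to 4966 CPM in Mutant and 1488 CPM in Control. The 6 upper follicle markers summed to 1571 CPM in Mutant and 456 CPM in Control, of which Plet1 had 1391 CPM in Mutant and 313 CPM in Control. The 7 bulge markers were lower in Mutant basal-like cells, with a sum of 2741 CPM in Mutant and 4863 CPM in Control, and likewise in suprabasal-like cells, with 761 CPM in Mutant and 2050 CPM in Control. The 8 suprabasal markers summed to 33653 CPM in Mutant and 32552 CPM in Control suprabasal-like cells, although Krt1 fell (1336 CPM in Mutant, 3412 CPM in Control) and Ivl, for involucrin, rose (582 CPM in Mutant, 139 CPM in Control). The 9 T and NK cell markers, all detected, summed to 84.2 CPM in Mutant and 563 CPM in Control basal-like cells. The class included cluster 25 (6 Mutant and 175 Control cells), which had the T cell marker Il2rb among its leading genes. Without it, an alternative added after seeing the data, the ratios were 1.31 for Cldn4 and -1.25 for Dsg1a. The part of the companion layer, outer root sheath, upper follicle, bulge and suprabasal markers in the junction gene ratios was not tested.

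In cluster 0 (1658 Mutant and 1150 Control cells), 1 of 8 compared members rose, against 2.58% of all compared genes, and 1 fell, against 2.08%. Gjb2 had 1892 UMIs (111 CPM) in Mutant and 2782 UMIs (244 CPM) in Control cells, a log2 ratio of -1.14 (-1.22 to -1.06). Its thinned share of cells was 12.9% in Mutant and 26.1% in Control, both above the T or NK cell-like shares. Hence Gjb2 fell in cluster 0 and rose in suprabasal-like cells, and this difference between classes was not tested. Its ratio was above 0 on the log2 scale in 2 of the 14 classes where it was compared. Over all kept cells Gjb2 had 161 CPM in Mutant and 293 CPM in Control (log2 -0.86). In hair matrix-like cells Gjb2 had 87.3 CPM in Mutant and 134 CPM in Control (log2 -0.62), which is not large.

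Cldn4 (ENSMUSG00000047501, chromosome 5, 134945119 to 134946934, minus strand, GRCm38) encodes a claudin of the upper epidermis, and Cldn1 (ENSMUSG00000022512, chromosome 16, 26356642 to 26371841, minus strand) one that mouse skin needs to hold water. Cldn4 was highest in suprabasal-like cells, with 1398.5 CPM in Mutant and 816 CPM in Control. It rose in basal-like cells, with 9103 UMIs (1052 CPM) in Mutant and 4510 UMIs (409 CPM) in Control, a log2 ratio of 1.36 (1.31 to 1.41). It also rose in cluster 0, with 262 CPM in Mutant and 121 CPM in Control (log2 1.11, 1.03 to 1.20). Thinned shares of cells with Cldn4 were 44.4% in Mutant and 21.8% in Control basal-like cells, and 2.42% in Mutant and 1.86% in Control T or NK cell-like cells. In the 8 keratinocyte classes where it was compared, clusters 0 and 1 counted among the 9, its log2 ratio lay between 0.35 and 1.36 and the interval stayed above 0 each time.

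Within the basal-like class the ratio of Cldn4 differed between clusters. Cluster 4 had 1068 CPM in 1258 Mutant cells and 905 CPM in 24 Control cells (log2 0.24, with an interval that held 0). Cluster 11 had 218 CPM in 49 Mutant cells and 411 CPM in 948 Control cells (log2 -0.91, -1.34 to -0.52). Cluster 25 had 1655 CPM in 6 Mutant cells and 376 CPM in 175 Control cells. With clusters 4 and 11 weighted equally, the ratio was -0.032. The ratio in cluster 0, which is a single cluster, remained large under every setting tried.

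**Figure D3:**
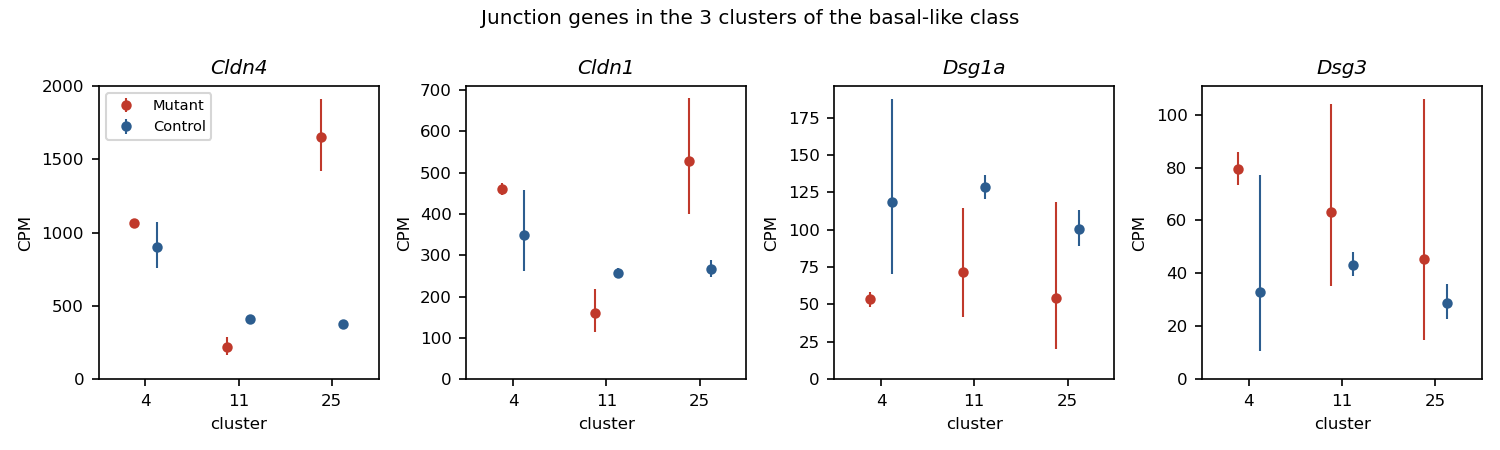
Levels in CPM (vertical axis) of Cldn4, Cldn1, Dsg1a and Dsg3 in the 3 clusters of the basal-like class (horizontal axis), Mutant in red left of Control in blue, with exact Poisson 95% intervals. Cluster 4 held 1258 of the 1313 Mutant cells and cluster 11 held 948 of the 1147 Control cells, and Cldn4 in cluster 11 stood lower in Mutant (218 CPM) than in Control (411 CPM).

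The bases before the start of Cldn4 are shown because this claudin rose in basal-like cells and in cluster 0. The line gives chr5:134946935-134947184 on the minus strand of GRCm38.p6 from RefSeq, with AP-1 matches in capitals.
Cldn4: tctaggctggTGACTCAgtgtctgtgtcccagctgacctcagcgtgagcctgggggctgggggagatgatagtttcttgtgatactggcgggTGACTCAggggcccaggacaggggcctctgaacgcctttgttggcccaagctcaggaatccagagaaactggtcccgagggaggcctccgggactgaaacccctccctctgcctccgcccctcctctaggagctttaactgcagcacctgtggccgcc
The window of Cldn4 held 2 AP-1 matches, at positions -240 and -158 from the start. At least 1 match was present in 6.75% of 32851 promoters, and Gja1 (at -19) and Cldn15 (at -214) had 1 each.

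Cldn1 rose in suprabasal-like cells, with 3606 UMIs (839 CPM) in Mutant and 564 UMIs (332 CPM) in Control, a log2 ratio of 1.34 (1.21 to 1.47). It was found in 92.9% of Mutant and 72.4% of Control suprabasal-like cells, and in 64.7% of Mutant and 36.3% of Control cells after thinning. The thinned shares in T or NK cell-like cells were 2.77% in Mutant and 1.86% in Control. Upper follicle-like cells had 622 CPM in Mutant, below the suprabasal-like level, and 397 CPM in Control, above it, and basal-like cells had 453 CPM in Mutant and 261 CPM in Control. Scaled by class totals, the suprabasal-like ratio of Cldn1 alone was large, and with TMM factors the basal-like one was large too (log2 1.06). Its interval by totals stayed above 0 in all 9 keratinocyte classes, with log2 ratios between 0.25 and 1.34. Within the basal-like class this did not hold in each cluster: in cluster 11, which held most of its Control cells, Cldn1 had 159.7 CPM (38 UMIs) in Mutant and 257 CPM in Control cells (log2 -0.69, -1.19 to -0.23). Cluster 4 had 461 CPM in Mutant and 350 CPM (53 UMIs) in Control cells (log2 0.40).

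The other compared claudins had no large ratio. Cldn10, which forms ion-selective tight junctions in other epithelia, was highest among the compared classes in hair matrix-like cells, with 150.5 CPM in Mutant and 172 CPM in Control. It was next in cluster 0 in Mutant cells (87.4 CPM, against 102 CPM in Control) and in fibroblast-like cells in Control (76.1 CPM in Mutant and 119 CPM in Control). Among the compared classes Cldn8 passed the minimum in hair medulla-like cells alone, with 21.04 CPM in Mutant and 37.1 CPM in Control. Cldn14 reached 14.5 CPM in Mutant and 10.4 CPM in Control inner root sheath-like cells and stayed under 1 CPM in the other compared classes. Cldn9 reached 15.8 CPM in Mutant and 21.4 CPM in Control dermal papilla-like cells. The symbol Cldn34c1 shares its last 300 bases with Cldn34c2 at 100% identity, so reads there could come from either gene. Cldn34c1 had 397 UMIs over both matrices and Cldn34c2 had 0, so the counts were not split between them.

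**Figure D4:**
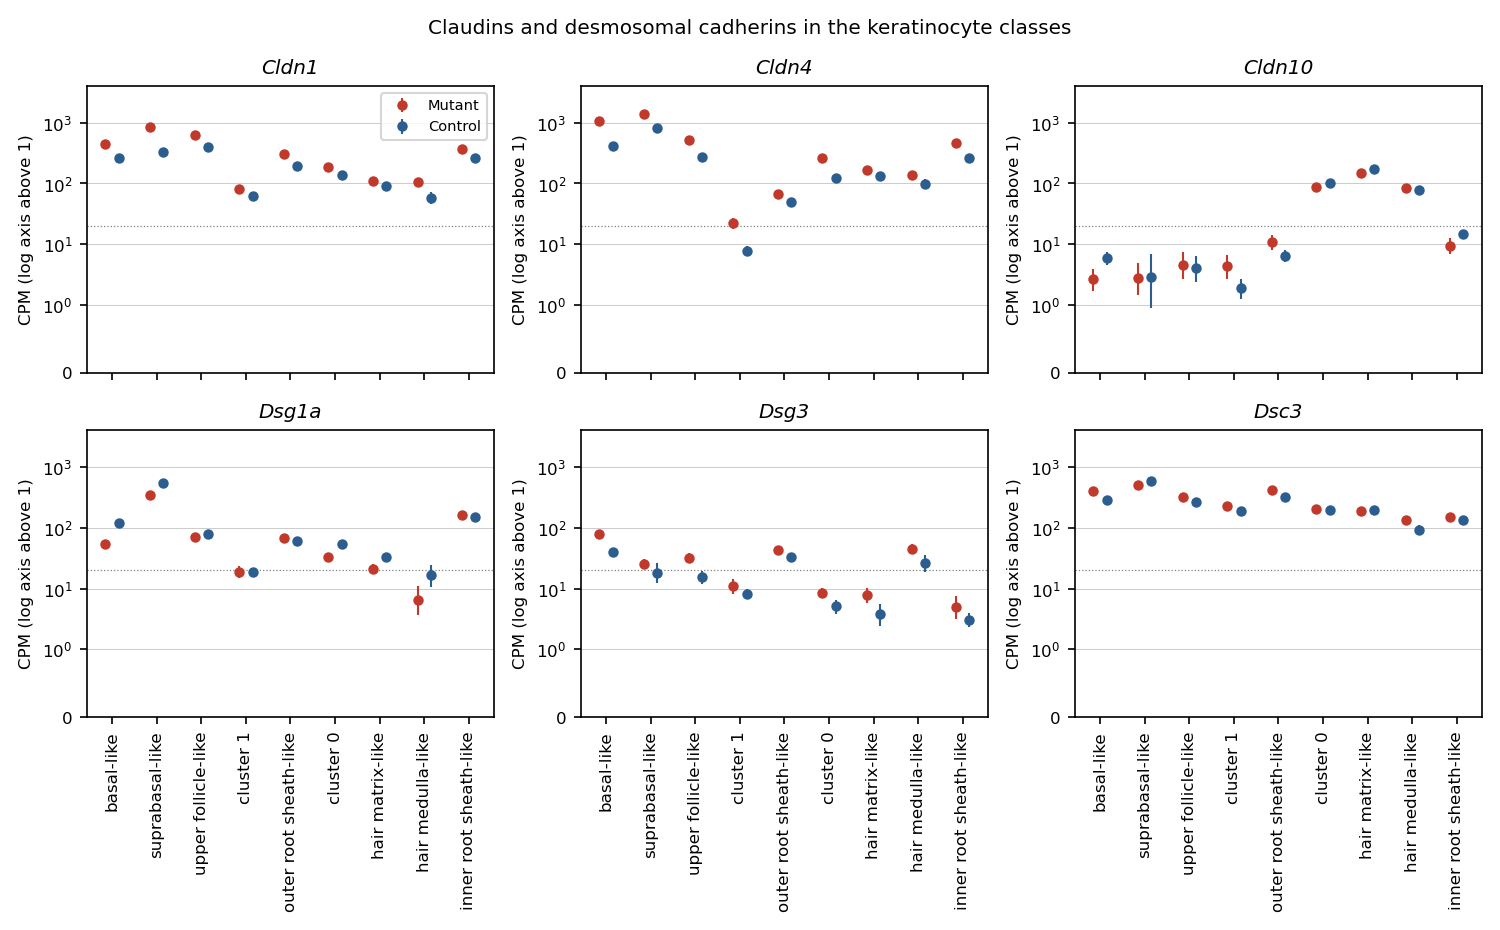
Levels in CPM (log axis above 1) of 3 claudins and 3 desmosomal cadherins in 9 keratinocyte classes, Mutant in red left of Control in blue, with exact Poisson 95% intervals; the dotted line is the 20 CPM minimum. Cldn1 and Cldn4 stood higher in Mutant cells in each keratinocyte class where they were compared, and Dsg1a in basal-like cells stood lower (53.9 CPM in Mutant, 121 CPM in Control).

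The 8 desmosomal cadherin genes that were kept form 1 cluster on chromosome 18. Dsg1a (20310811 to 20343350, plus strand, GRCm38), a desmoglein of the upper epidermis, was highest in suprabasal-like cells, with 344 CPM in Mutant and 551 CPM in Control (log2 -0.68). It fell in basal-like cells, with 466 UMIs (53.9 CPM) in Mutant and 1339 UMIs (121 CPM) in Control, a log2 ratio of -1.17 (-1.33 to -1.02). Within clusters Dsg1a was lower in Mutant cells as well, with 53.3 CPM in Mutant and 119 CPM (18 UMIs) in Control cells of cluster 4, and 71.4 CPM (17 UMIs) in Mutant and 128 CPM in Control cells of cluster 11. The ratio was not large with TMM factors. In inner root sheath-like cells Dsg1a had 165 CPM in Mutant and 149 CPM in Control.

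Dsg3 (20510274 to 20547459, plus strand), the basal desmoglein targeted in human pemphigus vulgaris, was highest in basal-like cells, with 78.6 CPM in Mutant and 39.6 CPM in Control (log2 0.99, just short of large). With TMM factors that ratio was large (log2 1.26). Dsg3 rose in upper follicle-like cells, with 119 UMIs (32.4 CPM) in Mutant and 64 UMIs (15.3 CPM) in Control (log2 1.08, 0.63 to 1.55). By class totals it was the single large ratio among 10 compared members there, and 4.18% of all compared genes were higher and 8.28% lower. With TMM factors 4 members were higher, among them Cldn4 (log2 1.13) and Dsg2 (log2 1.03), against 372 of 5143 genes. The Dsg3 call held in 8 of 14 alternative settings. It was lost, among others, with the stricter cell filter, at both other resolutions and with cells thinned to 1500 UMIs. The thinned shares of upper follicle-like cells with Dsg3 were 4.58% in Mutant and 2.03% in Control, against 0.346% in Mutant and 0.0465% in Control T or NK cell-like cells. The 10 sebaceous gland markers summed to 963 CPM in Mutant (Mc5r at 0) and 3490 CPM in Control upper follicle-like cells, and 7 of the 10 were large and lower, among them Mgst1 (213 CPM in Mutant, 1205 CPM in Control). The part of these markers in the Dsg3 ratio was not tested. Dsg2, a broadly expressed desmoglein, was highest in hair medulla-like cells, with 102 CPM in Mutant and 88.1 CPM in Control. Dsg1b reached 53.3 CPM in Mutant and 54.8 CPM in Control suprabasal-like cells, a ratio whose interval held 0. Dsg4, which hair needs to keep its shape, was found mainly in small classes. Hair cortex and cuticle-like cells had 40.5 CPM (51 UMIs) in 71 Mutant cells and 25.4 CPM (73 UMIs) in 123 Control cells, and cluster 26 had 19.5 CPM (19 UMIs) in 86 Mutant cells and 34.4 CPM (40 UMIs) in 90 Control cells.

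Among the desmocollins, Dsc3, the form of the lower epidermis, was compared in 12 classes. Of these, suprabasal-like cells had the most, with 502 CPM in Mutant and 592 CPM in Control, and outer root sheath-like cells followed with 413 CPM in Mutant and 317 CPM in Control. Dsc1, the form of the upper epidermis, was instead highest in inner root sheath-like cells, with 113 CPM in Mutant and 134 CPM in Control, and reached 30.5 CPM in Mutant and 45.4 CPM in Control suprabasal-like cells. Over all kept cells Dsc1 had 9.49 CPM in Mutant and 26.5 CPM in Control (log2 -1.48), although neither of its compared classes had a large ratio. Inner root sheath-like cells made up 2.51% of kept Mutant cells and 5.87% of kept Control cells. Dsc2, a broadly used form, stayed under 10 CPM in all 15 classes.

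**Figure D5:**
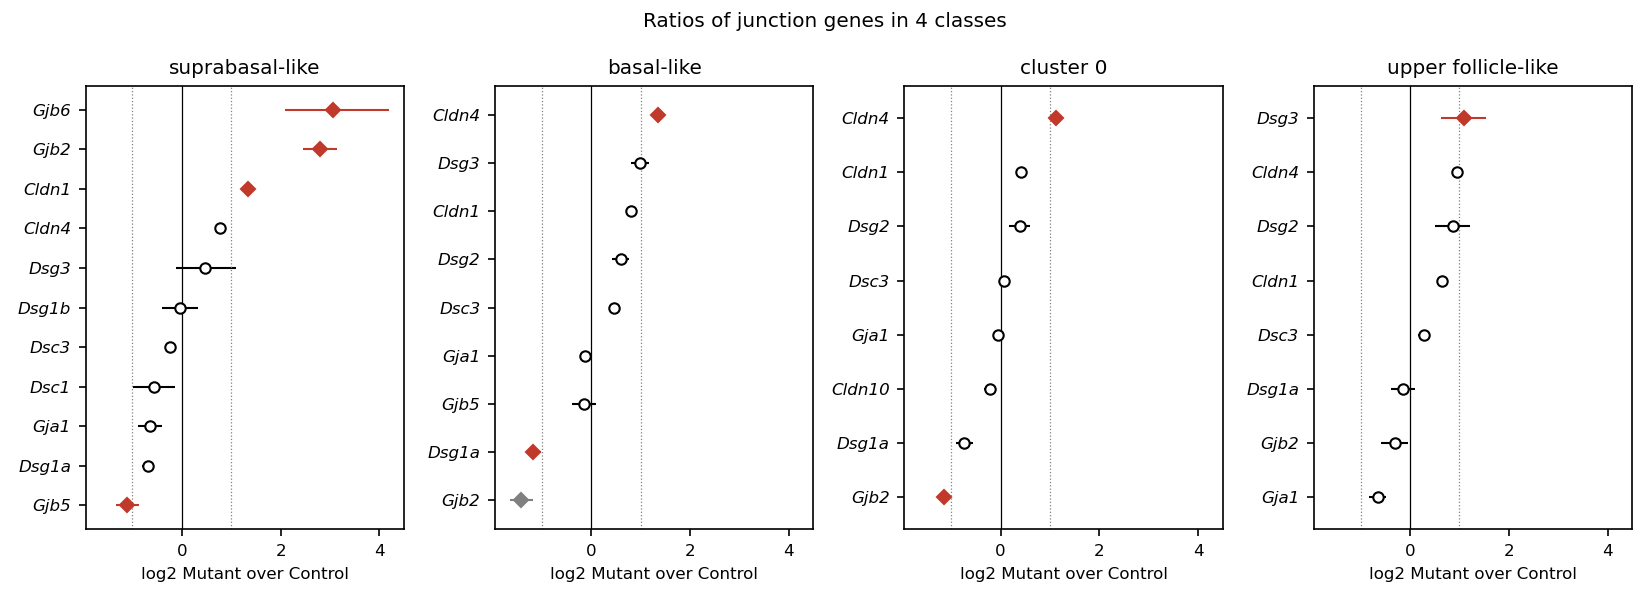
Log2 ratios of Mutant over Control (horizontal axis) with exact 95% intervals for named members compared in suprabasal-like, basal-like, cluster 0 and upper follicle-like cells. Filled red diamonds are large ratios, the grey diamond is possible free RNA, open circles are not large, and dotted lines mark a 2-fold ratio; Gjb2 lies at 2.79 in suprabasal-like cells and at -1.14 in cluster 0.

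In the compared classes outside the epithelium, scaled by class totals, the large ratios were all of possible free RNA. With TMM factors Gja1 was also large and higher in fibroblast-like cells. Langerhans-like cells, given levels only, had Cldn4 at 1320 CPM (1024 UMIs) in 77 Mutant and 532 CPM (665 UMIs) in 60 Control cells. Gja1 there went the other way, with 164 CPM in Mutant and 313 CPM in Control. The median depth of Langerhans-like cells was 4314 UMIs in Mutant and 15450 UMIs in Control. They also held desmosomal cadherin RNA, with Dsc3 at 316 CPM in Mutant and 212 CPM in Control, and Dsg1a at 21.9 CPM in Mutant and 89.6 CPM in Control. The part of depth and of keratinocyte RNA in these levels was not tested. In T or NK cell-like cells (1109 Mutant and 2485 Control cells), 2 of 5 compared members were large and lower, against 7.44% of all genes, and none was higher, against 4.38%. Most of these Mutant cells were in cluster 9 (1023) and most Control ones in cluster 2 (1467). The lower members were Gjb2 (31.0 CPM in Mutant, 76.6 CPM in Control) and Dsc3 (19.0 CPM in Mutant, 44.0 CPM in Control). Within cluster 2 the direction of Gjb2 was the opposite, with 186 CPM (29 UMIs) in 60 Mutant cells and 91.97 CPM in Control cells (log2 1.01, 0.42 to 1.56). In cluster 9 it had 18.9 CPM in Mutant and 144 CPM (10 UMIs) in 40 Control cells, and in cluster 10 its ratio was 0.04 with an interval that held 0. The 8 basal keratinocyte markers, all detected, summed to 490 CPM in Mutant and 673 CPM in Control T or NK cell-like cells. Gjb2 was also lower in Mutant fibroblast-like cells (26.9 CPM in Mutant, 67.5 CPM in Control), as 1 of 6 compared members, against 4.25% of all genes lower and 2.86% higher. Cldn4 was higher in cluster 15, led by Il17a (50.5 CPM in Mutant, 16.5 CPM in Control), as 1 of 5 compared members, against 2.16% of all genes higher and 2.23% lower.

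Several members with low counts overall were concentrated in small classes that were given levels only. Cldn5, the claudin of blood vessel walls, had 1343 CPM in 123 Mutant cells and 1452 CPM in 197 Control cells of cluster 20, which carried endothelial and lymphatic markers, and at most 18.6 CPM in the 15 compared classes. In that cluster Gja4, a vascular connexin, had 28.6 CPM (12 UMIs) in Mutant and 96.7 CPM (85 UMIs) in Control. Cldn19, the claudin of Schwann cells, had 493 CPM in 121 Mutant and 333 CPM in 97 Control Schwann-like cells. Those cells also held Gjc3, a connexin of myelinating glia, at 160 CPM (39 UMIs) in Mutant and 112 CPM (26 UMIs) in Control. Cldn3 was highest in companion layer-like cells, with 205 CPM in 54 Mutant and 350 CPM in 54 Control cells, and the same cells had Gjb2 at 1595 CPM in Mutant and 1326 CPM in Control. Gjc1, a connexin of vascular smooth muscle, had 165 CPM (30 UMIs) in Mutant and 328 CPM (40 UMIs) in Control pericyte-like cells. Among the compared classes Gjc1 was highest in dermal papilla-like cells, with 90.96 CPM in Mutant and 53.5 CPM in Control (log2 0.76). The median depth there was 3072 UMIs in Mutant and 7665 UMIs in Control cells. Gja3, best known as a lens connexin, passed the minimum in 1 of the compared classes, hair medulla-like cells, with 24.1 CPM in Mutant and 27.2 CPM in Control. Its levels were higher in hair cortex and cuticle-like cells, with 87.3 CPM in Mutant and 28.6 CPM in Control, and in cluster 26, with 37.9 CPM in Mutant and 30.1 CPM in Control.

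Partners of the junction proteins were taken from 5 lists, counted over pairs of gene and class in the 15 classes, where 3.44% of the pairs of all genes were large and higher and 4.90% large and lower. Of 86 pairs of tight junction partners, 8 were large and higher in Mutant cells and 1 lower. Most of the higher pairs were a single gene, not reported here by name, counted in different classes. Tjp1, which anchors claudins to actin, rose in hair medulla-like cells (72.3 CPM in Mutant, 29.1 CPM in Control, log2 1.31), and the lower pair was Tjp3 in suprabasal-like cells (15.6 CPM in Mutant, 36.0 CPM in Control, log2 -1.20). Of 80 pairs of desmosome partners, 4 were higher and 2 lower. Cdsn, for corneodesmosin, which joins the desmosomes of cornifying cells, rose in suprabasal-like cells (295 CPM in Mutant, 60.7 CPM in Control, log2 2.28) and in upper follicle-like cells (68.4 CPM in Mutant, 13.1 CPM in Control, log2 2.38). Jup, for plakoglobin, rose in basal-like cells (610 CPM in Mutant, 284 CPM in Control, log2 1.10), whereas Dsp, for desmoplakin, had 597 CPM in Mutant and 450 CPM in Control there, which is not large. Both lower pairs of desmosome partners, Perp and Pkp3, were in T or NK cell-like cells.

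Of 142 adherens junction pairs, 9 were large and higher and 0 lower. Of the higher pairs, 5 were in dermal papilla-like cells, where 7.44% of all compared genes were higher. The median depth there was 3072 UMIs in Mutant and 7665 UMIs in Control cells, and its part was not tested. Cdh1, for E-cadherin, rose in basal-like cells (662 CPM in Mutant, 294 CPM in Control, log2 1.17), and Nectin2 rose in dermal papilla-like cells (146 CPM in Mutant, 59.3 CPM in Control, log2 1.30). Of 54 pairs of epithelial transcription factors tied to junction genes, 2 were higher and 5 lower. The lower pairs included Ovol1 in T or NK cell-like cells and Klf4 in cluster 15, which are outside the epithelium. Both higher pairs were Grhl3, a factor needed for the skin barrier, with 220 CPM in Mutant and 84.9 CPM in Control suprabasal-like cells (log2 1.37). Klf4, another barrier factor, fell in basal-like cells (298 CPM in Mutant, 827 CPM in Control, log2 -1.47), and Ovol1 fell in suprabasal-like cells (328 CPM in Mutant, 944 CPM in Control, log2 -1.53). None of the 4 pairs of pannexins and other connexins outside the name rule was large. In basal-like cells the median log2 ratio was 0.03 for desmosome partners, 0.13 for tight junction partners, 0.41 for adherens junction genes and -0.65 for the transcription factors. The median log2 ratio over compared members was 0.60 in basal-like cells, where that of all genes was -0.11, and -0.04 in suprabasal-like cells, where that of all genes was -0.17. Most Mutant and most Control basal-like cells lay in different clusters. The basal-like medians and the ratios of Jup, Cdh1 and Klf4 therefore largely compare clusters, and no within-cluster ratio of a partner was computed.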

How the data were processed

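Both groups were deposited as 1 matrix of unnormalized UMI counts each, from 10x Genomics 3' chemistry. Per the file headers the matrices come from Cell Ranger 3.0.2. The submitters' processing notes list GRCm38 (mm10) and Seurat, versions 3.0.0 and 3.1.0. A barcode was kept with 500 or more genes and no more than 15% of UMIs mitochondrial, and Scrublet calls were removed (408 Mutant, 413 Control). Clusters came from scanpy 1.11.5: 2000 variable genes without junction genes, their partners, cell cycle and sex-linked genes, 30 components, 15 neighbours and Leiden resolution 1 (leidenalg 0.10.2), which gave 32 clusters with no integration. A cluster was named "X-like" from markers of 29 cell types if it scored at least 1 and led by 0.3 with at least 3 markers detected. Its leading genes could not hold more markers of another type, nor could it be of low depth with no own marker among them. The others keep their number, cluster 1 because of its leading genes. UMIs were summed per class and matrix. Levels have exact Poisson intervals, ratios exact conditional intervals and shares of cells Clopper-Pearson intervals (scipy 1.17.1), all for counting error only. The ratio step was tested on simulated data. Both levels under 10% of a gene's highest class mark possible free RNA. TMM factors are from edgeR 4.0.16 and size factors from DESeq2 1.42.0; neither was used for a test. Gene coordinates are those of GENCODE vM21. Named genes are members with a large ratio, those with the highest levels in each family, and up to 3 genes a partner list; the other named partners, the markers and the small-class genes were picked with their values in view. The members and lists were chosen with earlier results of these data known. Counts cover every member and partner, and some of those counted are not reported here by name.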

Additional observations from a re-analysis of the deposited data

Results flagged for a closer look

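The connexin Gjb2 moved in opposite directions in different classes, with a log2 ratio of Mutant over Control of 2.79 in suprabasal-like cells and -1.14 in cluster 0. This difference between classes was not tested, since each group is 1 pooled matrix. The Gjb2 ratio was above 0 in 2 of its 14 compared classes and was -0.86 over all kept cells.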

How the results depend on the processing

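Over the 12 classes, 5 ratios were large and higher in Mutant cells and 6 large and lower. The count of higher ratios was 11 with TMM factors, 11 with DESeq2 size factors, 8 with Scrublet calls kept, 2 with a level minimum of 100 CPM, 13 with one of 5 CPM and 9 with classes of at least 150 cells, the last added after seeing the data. The count of lower ratios was 3 with Scrublet calls kept, 2 with junction genes among the variable genes, 3 with cells thinned to 1500 UMIs, 1 with a level minimum of 100 CPM and 2 with clusters weighted equally. TMM factors subtract from the ratios a shift of -0.47 in suprabasal-like, -0.27 in basal-like, -0.23 in fibroblast-like, -0.17 in upper follicle-like and -0.15 in T or NK cell-like cells. Of 17 large ratios in the 15 classes, 5 were marked as possible free RNA, and all of these but Cldn4 in cluster 15 were lower in Mutant cells. Of the 17, 3 stayed large under every setting that gave a value: Cldn4 and Gjb2 in cluster 0 and Gjb2 in suprabasal-like cells. The sign changed for Gjb2 in T or NK cell-like cells (0.36 with junction genes among the variable genes), Cldn4 in basal-like cells (-0.032 with clusters weighted equally) and Gjb2 in basal-like cells (0.21 at resolution 0.5). At resolution 0.5 the matched basal cluster held 1289 Mutant and 27 Control cells, and upper follicle-like and suprabasal-like cells fell in 1 cluster of 706 Mutant and 316 Control cells; other causes were not tested. Of 1511 recomputed ratios, 1204 lay within the counting interval of the reported one. No paired analysis was possible because the cells of a matrix are not mapped to samples. Depth limits hair medulla-like (174 Control cells), cluster 15 (195 Mutant cells) and suprabasal-like (196 Control cells) ratios among others.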
